A study of Mus musculus with 563 samples.

Results

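The genes described here carry out DNA replication. They are 51 named genes, chosen by name, and each was found among the 46041 nuclear gene entries of both count tables of the study. They were set out by step as 10 genes of origin licensing, 6 of helicase activation, 8 of the polymerases and primase, 10 of the sliding clamp, its loaders and ligation, 5 of single-strand binding and fork protection, 5 of nucleotide supply, 3 of histone supply and 4 regulators of the entry into S phase. The study sequenced single hematopoietic stem cells (HSCs) from the bone marrow of young and old mice by Smart-seq2. All groups carried the Gfp-Lc3 transgene, a fluorescent reporter on a protein of the autophagosome, and were isolated at steady state. Young cells formed a single group, and old cells were labelled LO, MID or HI. The labels give no age in months, do not say what LO, MID and HI rank, and name no animal. Of 563 cells, 533 passed the limits on reads and genes, which were 68 and 61 HI, 68 and 66 MID, 65 and 71 LO and 63 and 71 young cells by table.

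Before S phase, the origin recognition complex, Cdc6 and Cdt1 place the Mcm2 to Mcm7 ring on DNA, which licenses an origin to fire once per cycle. Cdc45 and the GINS complex then turn the ring into the active helicase, and the polymerases follow with a clamp, its loaders and a supply of nucleotides and histones. Most of these genes are transcribed from late G1 by E2F factors. Adult HSCs are known to divide rarely, so that most of them are outside the cycle at any one time.

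Since E2F factors bind a short known DNA word, the promoters were searched for it to show what the genes share in sequence. RefSeq promoter windows (GRCm38.p6, 250 bases before to 50 after a transcript start) were at hand for 41 of the 51 genes. The words TTTCCCGC, TTTGGCGC, TTTCGCGC and TTTGCCGC were searched on both strands. Words on opposite strands can overlap, as they do in Mcm5 below, and a gene with several words was counted once. At least 1 word lay in the windows of 15 of the 41 genes, 36.6%, against 2.6% of 27025 genes with a window. By step, 7 of 9 licensing genes held a word, 3 of 6 polymerase and primase genes, 3 of 8 clamp, loader and ligation genes and 0 of 5 nucleotide genes. A word was also held by 1 of 3 helicase activation genes and 1 of 3 regulators of S phase entry. None was found in 4 genes of single-strand binding and fork protection or in 3 of histone supply. The stretches below were chosen from the helicase ring, its loaders and the genes that start synthesis, and only words before the transcript start are shown. The words of Mcm3 and Cdt1 and a further word of Mcm7 lie at or past the start and were left out. Mcm5 and Mcm6 also held further words. Capitals mark the word, as written on the gene's own strand.
Mcm5: aagaacTTTCGCGCcaaaacgtccagcctc
Mcm6: gacgggTTTGGCGCgaagtagctcagctcc
Mcm7: cgaaccGCGGGAAAcagggtgtccaacccg
Cdc6: tggagaGCGGGAAAtcgcctggggtctgag
Orc1: ttagtgGCGCGAAAagttttctcctgtgcc
Gins3: tgcggcGCGGGAAAgcgagtttgaagccgg
Pola1: cacaggGCGCCAAAtgcactcccgcgggaa

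Each word lies before the start of the RefSeq transcript whose window holds it. The stretches are at chr8:75109350-75109379 on the plus strand for Mcm5, chr1:128359729-128359758 on the minus strand for Mcm6, chr5:138172025-138172054 on the minus strand for Mcm7 and chr11:98908007-98908036 on the plus strand for Cdc6. The others are chr4:108579421-108579450 on the plus strand for Orc1, chr8:95633512-95633541 on the plus strand for Gins3 and chrX:93632270-93632299 on the minus strand for Pola1. By the GENCODE gene spans, which take in other transcripts, those of Mcm7, Cdc6, Gins3 and Orc1 lie inside the gene or overlap its start, and those of Mcm5, Mcm6 and Pola1 lie before it. Among 31 genes of G2 and mitosis, 28 had a window and 1 held an E2F word, 3.57%. The word CCAAT, searched on both strands, lay in the windows of 82.1% of those 28 genes, 61% of the 41 replication genes and 41.1% of all genes. E2F words were thus more frequent in the replication genes than in the G2 and mitosis genes, and CCAAT was more frequent in the latter. A match describes letters in a window, and no binding was measured.

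For levels, the reads of all kept cells of a group were added up within each of the 2 count tables and scaled to the total of nuclear gene reads (CPM) with TMM composition factors. Differences are on the log2(CPM + 1) scale, averaged over the tables, with the first and then the second table in brackets. Each group counts as 1 sample, because the labels do not link cells to animals, so no test between groups was run and intervals cover counting error only. A gene was called higher or lower when its difference had the same sign and was at least 0.58, about 1.5-fold, in each table. Calls were open to genes with a mean of 10 CPM or more that were read in 10% or more of the kept cells, which left out Orc1, Fen1, E2f2 and Ccne1. Shares of cells come from cells thinned to 100000 reads each, which 65 and 58 HI, 65 and 62 MID, 57 and 66 LO and 59 and 69 young cells allowed.

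Several features of the cells differed along with the replication genes, and their part in the results was not tested. The median depth of a kept cell was 271443 reads (young), 257237 (LO), 254723 (MID) and 340529 (HI). All 501 thinned cells held reads of at least 3 of 10 HSC markers. At least 3 of 5 markers of multipotent progenitors were read in 37.5%, 14.6%, 23.6% and 28.5% of young, LO, MID and HI cells, and at least 3 of 5 megakaryocyte markers in 7.81%, 17.9%, 16.5% and 27.6%. Summed over the list, the progenitor markers were at 510.1 and 599 CPM (HI), 610.5 and 424 (MID), 500.4 and 449.7 (LO) and 685 and 789 (young), with Cd48 at 0 in LO cells. The megakaryocyte markers came to 266 and 307 CPM (HI), 203 and 216 (MID), 251 and 376 (LO) and 157 and 143.3 (young). Lists of 6 erythroid, 6 granulocyte and monocyte, 3 mast and basophil, 6 lymphoid and 4 dendritic markers reached 3 genes in at most 2 cells of any group. Of these, the granulocyte and monocyte list summed to 423 and 404 CPM (HI), 498 and 495 (MID), 566 and 516 (LO) and 234 and 232 (young), with 1 of its 6 genes at 10 CPM or more in each group. All 71 young cells of the second table held at least 20 reads of Xist and none held 20 reads of Y-linked genes, while 57 to 62 cells held such Y reads in each of the other 7 sums, so that sex and table cannot be told apart among young cells. Of the genes named below Pola1 is X-linked.

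Among old cells, those labelled HI had the highest levels of replication genes and those labelled LO the lowest. All 51 genes were higher in HI than in LO cells in both tables, where 33.4% of 10721 genes were. Of the 47 genes open to a call, 40 were called higher and 0 lower in HI cells, against 4.84% and 3.29% of all genes. Without the 16 to 31 cells of each group and table that held at least 3 markers of another cell type, 26 were called higher. The share of all genes called after that step is not given here, so the drop cannot be set against it. The median over the 51 genes was 1.33 (1.25 and 1.30), and the median over the 10721 genes open to a call was 0.02. Over the 47 replication genes open to a call it was 1.32. Medians of a list are taken over the averages of its genes, so they need not lie between the medians of the tables. The 51 genes together took 0.446% (young), 0.297% (LO), 0.386% (MID) and 0.679% (HI) of nuclear reads. In the order of the 4 groups, HI cells had the highest level of 42 genes in the first table and 47 in the second, and LO cells had the lowest level of 45 and 35 genes. In no gene was the HI level the lowest of the 4 in either table.

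**Figure D1:**
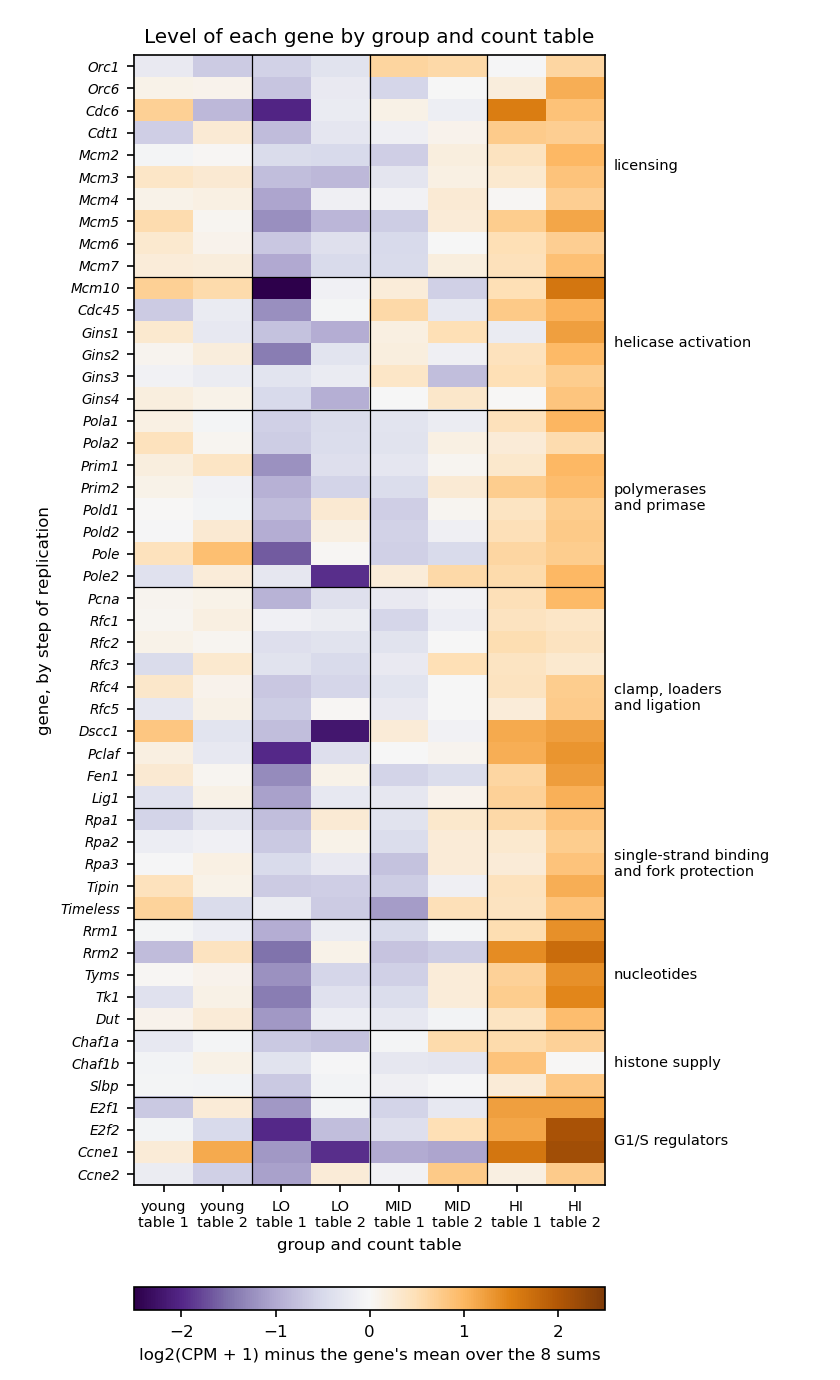
Level of each of the 51 replication genes in each group and count table, as log2(CPM + 1) minus the mean of the gene over the 8 sums, with genes in rows by step and groups in columns. The HI columns are orange for most genes, and the LO columns, above all that of the first table, are purple; HI cells had the highest level of 38 genes in both tables and LO cells the lowest of 29.

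Mcm2 to Mcm7 form the ring that is the core of the replicative helicase. Per kilobase of exon, Mcm6 had the highest level of the 51 genes in HI cells, at 103.7 CPM per kilobase, and stood at 78.1 in young, 46.9 in LO and 57.4 in MID cells. In CPM, Mcm6 (ENSMUSG00000026355, GRCm38 chr1:128331590-128359664, minus strand) was at 446 and 522 CPM (HI), 223 and 313 (MID), 194 and 243 (LO) and 389.7 and 339 (young). Both HI levels lay above all 6 other levels, and the HI against LO difference was 1.15 (1.19 and 1.10). Mcm5 (ENSMUSG00000005410, GRCm38 chr8:75109569-75128439, plus strand), with the largest HI against LO difference of the ring, was at 284 and 383 CPM (HI), 109.3 and 201 (MID), 71.4 and 92.8 (LO) and 246 and 176 (young). Its difference was 2.0 (1.98 and 2.03), close to the same in both tables, and both LO levels lay below all the others.

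The other subunits of the ring had smaller differences than Mcm5. Mcm2 was at 306 and 456 CPM (HI), 148.98 and 262 (MID), 168 and 162 (LO) and 224 and 235 (young), with a difference of 1.17 (0.87 and 1.48). Mcm3 was at 276 and 405 CPM (HI), 182 and 248 (MID), 128.7 and 123.5 (LO) and 288 and 273 (young), with a difference of 1.40 (1.10 and 1.70). In Mcm3 the HI levels overlapped those of young cells, and the LO levels were the 2 lowest. Mcm7 was at 255 and 344 CPM (HI), 133.98 and 211 (MID), 92.6 and 132.8 (LO) and 218 and 214 (young), with a difference of 1.41 (1.45 and 1.37), and shares bases with Cops6 and Ap4m1, which were also read. Mcm4, with the smallest difference of the ring, was at 68.1 and 110.9 CPM (HI), 63.2 and 81.2 (MID), 32 and 61 (LO) and 72 and 74.5 (young) and differed by 0.96 (1.06 and 0.85). Its HI level in the first table, 68.1, lay below both young levels. A read of all 6 ring genes was found in 34 young (26.6%), 13 LO (10.6%), 21 MID (16.5%) and 52 HI cells (42.3%) after thinning, and in 30.6%, 12.5%, 17.2% and 46.5% without it. The exact intervals of those thinned shares, which cover counting error only, were 5.75% to 17.4% in LO and 33.4% to 51.5% in HI cells.

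Of the factors that load the ring, Cdc6 and Orc1 were read in fewer cells than any ring gene, both among cells with and among cells without reads of Mki67 or Top2a. Cdc6, which recruits it to the origin, was at 51.7 and 31.9 CPM (HI), 18.6 and 15.2 (MID), 3.41 and 14.6 (LO) and 27.9 and 8.93 (young), with a difference of 2.33 (3.58 and 1.08). The LO level of the first table was the lowest of the 8, and the tables differed widely. Cdt1, the partner of Cdc6 in loading, was at 141.8 and 136.5 CPM (HI), 76 and 89.2 (MID), 47 and 68.5 (LO) and 54.4 and 100.9 (young), with a difference of 1.28 (1.57 and 0.98), and both HI levels were above all others. Orc1, the largest subunit of the origin recognition complex, was under the limit on level and was at 8.07 and 13.4 CPM (HI), 13.4 and 12.9 (MID), 5.24 and 6.32 (LO) and 6.96 and 4.94 (young). The MID and HI levels overlapped, both lay above those of young and LO cells, and the HI against LO difference was 0.76 (0.54 and 0.97). Orc6, a small subunit of the same complex that overlaps Vps35, differed by 1.11 (0.92 and 1.31). Of the 10 licensing genes, 9 were called higher, which is each of those open to a call, with a median of 1.23.

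Helicase activation had a median of 1.46, and 4 of its 6 genes were called higher in HI cells. Mcm10, needed to start unwinding, was at 26.9 and 60 CPM (HI), 22 and 12.1 (MID), 1.68 and 17.4 (LO) and 31.1 and 28 (young). Its level in LO cells of the first table came from 32 reads (Poisson interval 21.9 to 45.2), of which 43.8% were in a single cell, and its difference was 2.56 (3.38 and 1.73). A read of Mcm10 was found in 16.4% of young, 8.13% of LO, 9.45% of MID and 35.8% of HI cells. Cdc45, which joins the ring in the active helicase and overlaps Ufd1, was at 78.2 and 93.8 CPM (HI), 67.7 and 37.8 (MID), 18.5 and 43.5 (LO) and 28.3 and 39.2 (young), with a difference of 1.56 (2.02 and 1.09). Without the LO cell numbered 96 of the second table, the Cdc45 difference was 2.15. Among the 4 GINS genes, Gins2 differed by 1.55 (1.83 and 1.28) and Gins3 by 0.88 (0.81 and 0.94), the lowest of this step. Gins3 was at 29 and 34.6 CPM (HI), 26.3 and 11.3 (MID), 16 and 17.6 (LO) and 19 and 17.8 (young), with both HI levels above all others. Gins1 and Gins4 were not called, with differences of 1.37 (0.55 and 2.19) and 1.15 (0.52 and 1.78), as both were under the bound in the first table. LO cell 58 of the first table held 46% of the Gins1 reads of its sum. Without that cell the Gins1 difference was 1.75 (1.30 and 2.21), past the bound in both tables.

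The polymerases and primase had a median of 1.37, and 7 of 8 were called higher. Pole2, the accessory subunit of the leading strand polymerase, was at 25.3 and 34.2 CPM (HI), 19.8 and 25.7 (MID), 13.7 and 3.63 (LO) and 12.8 and 19.7 (young) and differed by 1.88 (0.84 and 2.93), the largest of this step. Its level in LO cells of the second table was the lowest of the 8. Pole, the catalytic subunit, was at 123.9 and 135.6 CPM (HI), 53.3 and 57.8 (MID), 25.1 and 82 (LO) and 109.7 and 152.7 (young) and differed by 1.49 (2.26 and 0.72), though its young levels overlapped those of HI cells. The primase genes Prim1 and Prim2 differed by 1.47 (1.54 and 1.40) and 1.58 (1.66 and 1.5), and Pola1 and Pola2, of the polymerase that extends primers, by 1.26 (1.05 and 1.47) and 0.93 (0.88 and 0.99). Pold1, the catalytic subunit of the lagging strand polymerase, was at 199 and 251 CPM (HI), 97.9 and 156.2 (MID), 85.9 and 183 (LO) and 151.97 and 142.6 (young) and was not called, with a difference of 0.83 (1.20 and 0.45). Its partner Pold2 was called at 1.02 (1.44 and 0.60), near the bound in the second table, and 33 single cells each changed that call when left out.

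Pcna, the sliding clamp that holds polymerases on DNA, was at 77.9 and 109.97 CPM (HI), 47.5 and 52.4 (MID), 29.2 and 42.6 (LO) and 58.2 and 59.9 (young). Both HI levels were the highest, and the difference was 1.37 (1.39 and 1.35); the pseudogenes Pcna-ps1 and Pcna-ps2 could share its reads. Pclaf, a small protein that binds the clamp and overlaps Trip4, was at 46.1 and 54.3 CPM (HI), 20.8 and 22.2 (MID), 4.56 and 15.6 (LO) and 23.9 and 17.5 (young), with a difference of 2.41 (3.08 and 1.73). A read of Pclaf was found in 16.4% of young, 13% of LO, 16.5% of MID and 35% of HI cells. Dscc1, part of a loader used when sister chromatids are joined, had the largest difference of this step at 2.67 (1.90 and 3.43) and was at 33.8 and 36.5 CPM (HI), 18.1 and 14.1 (MID), 8.29 and 2.49 (LO) and 27.3 and 11.8 (young). Rfc1, the large subunit of the main clamp loader, had the smallest of all 51 genes and was at 152.1 and 145.95 CPM (HI), 77.9 and 101.97 (MID), 106.5 and 100.5 (LO) and 117.7 and 128.9 (young), a difference of 0.52 (0.51 and 0.53) that was just under the bound in each table. The other loader subunits, Rfc2 to Rfc5, differed by 0.85, 0.77, 1.19 and 0.78, and all were called. Leaving out HI cell 71 of the first table, the value for Rfc3 was 0.65, and 1 single cell changed its call when left out. Lig1 and Fen1, which seal and trim the fragments of the lagging strand, differed by 1.54 (1.75 and 1.32) and 1.51 (1.89 and 1.12), Fen1 under the limit on level.

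The single-strand binding and fork protection genes had a lower median, 0.96, with 4 of 5 called. Rpa1, Rpa2 and Rpa3, the subunits of the complex that coats unwound DNA, differed by 0.96 (1.36 and 0.57), 0.81 (0.99 and 0.62) and 0.89 (0.72 and 1.06). Rpa1 missed the call narrowly in the second table. Rpa2, with the smallest difference of this step, was at 146.6 CPM in HI, 73.3 in LO and 105.7 in young cells of the first table. It was at 196 in HI cells of the second, the highest of the 8 levels. In the second table its level was lowest in young cells, followed by LO and then MID cells. Averaged over the tables, Rpa2 was at 171.5 CPM (HI), 113.5 (MID), 100.2 (LO) and 107.2 (young). Timeless and Tipin, partners that stabilise the fork, differed by 1.06 (0.61 and 1.52) and 1.39 (1.10 and 1.68), the latter the largest of this step. Tipin was at 86.9 and 136.2 CPM (HI), 40.8 and 58.2 (MID), 40.1 and 41.8 (LO) and 87.1 and 68.7 (young). For histone supply, the chromatin assembly factor genes gave Chaf1a 1.32 (1.23 and 1.41) and Chaf1b 0.62 (1.19 and 0.04). Chaf1a was at 56.4 and 61.2 CPM (HI), 37.1 and 56.5 (MID), 23.5 and 22.4 (LO) and 32.1 and 36.8 (young). Chaf1b was at 265 and 148.8 CPM (HI), 123.01 and 119.4 (MID), 115.9 and 144.3 (LO) and 139.6 and 161 (young), and its HI level in the second table was close to those of the other groups. Slbp, which binds histone mRNA, differed by 0.88 (0.92 and 0.84).

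Genes of nucleotide supply had the highest median of any step with all its genes open to a call, 1.89, and all 5 were called higher. Rrm2, the S phase subunit of ribonucleotide reductase, was at 101.5 and 128.4 CPM (HI), 22.3 and 24.1 (MID), 12.7 and 40.9 (LO) and 21 and 51.2 (young). Both HI levels were above all others, and the difference was 2.27 (2.90 and 1.63). Rrm1, the subunit present through the cycle, differed by 1.51 (1.49 and 1.54). Tyms, which makes thymidylate, was at 128.2 and 207 CPM (HI), 52.8 and 93.5 (MID), 34 and 55 (LO) and 81.7 and 85.8 (young). It differed by 1.89 (1.89 and 1.89) and has a pseudogene, Tyms-ps. LO cell 58 of the first table held 38.3% of the Tyms reads of its sum. Without that cell the Tyms difference was 2.22 (2.54 and 1.91), so the equal values of the tables depended on it. Tk1, which salvages thymidine and overlaps Afmid, was at 93.8 and 156.3 CPM (HI), 40.9 and 65.9 (MID), 20.8 and 43.7 (LO) and 43.7 and 61 (young) and differed by 1.97 (2.12 and 1.81). Dut, which removes dUTP, had the smallest difference of this step at 1.33 (1.57 and 1.09) and was at 130.1 and 188 CPM (HI), 82.3 and 93.7 (MID), 43.2 and 87.9 (LO) and 104.5 and 115.9 (young).

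The regulators of S phase entry held the 2 largest differences of the 51 genes, those of Ccne1 and E2f2, and E2f2 had the lowest mean level per kilobase. E2f1, a transcription factor for replication genes, was at 98.8 and 98.8 CPM (HI), 28 and 35 (MID), 18.1 and 39.4 (LO) and 25.7 and 49.6 (young) and differed by 1.84 (2.39 and 1.30). Without the LO cell numbered 90 of the second table its difference was 2.63. Ccne1, a cyclin that drives entry into S phase, was under the limit on level and was at 16.4 and 23.9 CPM (HI), 1.81 and 1.70 (MID), 1.52 and 0.448 (LO) and 5.63 and 11.3 (young). Its sums were 29 and 9 reads in LO and 416 and 577 in HI cells, and the difference was 3.44 (2.79 and 4.10). A single cell held 75.9% of the Ccne1 reads of LO cells in the first table. E2f2, a related factor also under the limit, differed by 3.01 (3.16 and 2.87), or 3.74 without 1 LO cell of the second table. Ccne2, the other E cyclin, was at 15.2 and 23.4 CPM (HI), 12.6 and 23.6 (MID), 5.82 and 16.2 (LO) and 11.6 and 8.57 (young) and was not called, with a difference of 0.88 (1.25 and 0.5). Without the LO cell numbered 96 of the second table it was called, at 1.72.

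**Figure D2:**
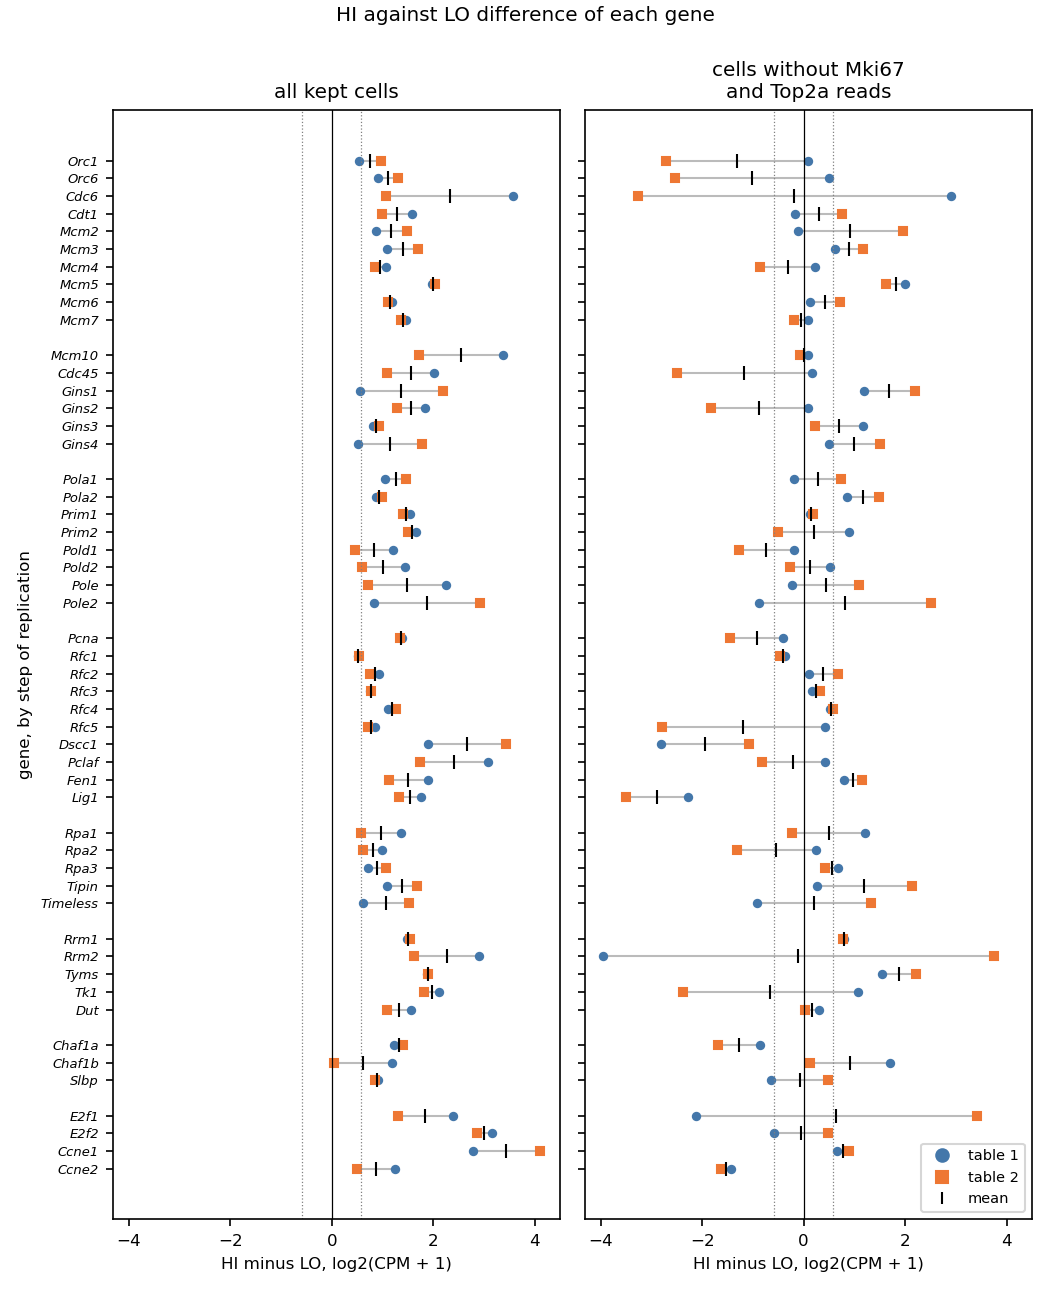
HI minus LO difference of each replication gene on the log2(CPM + 1) scale in the first (circles) and the second table (squares) with their mean (bar), in all kept cells on the left and in cells with no read of Mki67 and Top2a on the right; dotted lines mark 0.58 in either direction. In all kept cells every point lies above 0, and the median is 1.33; in cells without those reads the points lie on both sides, and the median is 0.20.

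Other genes of replication and of later phases were set beside these. Among 59 further replication genes, of which 58 were open to a call, 36 were called higher in HI than in LO cells and 1 lower. Of all genes 4.84% were called higher and 3.29% lower. The median of the further replication genes was 0.83. The lower one was Samhd1, which breaks down deoxynucleotides, at -0.92 (-0.64 and -1.19). The helicase gene Hells stood at 69.4 and 75.2 CPM (HI), 41.5 and 41.9 (MID), 6.82 and 20.6 (LO) and 33.3 and 42.7 (young). Among 31 genes of G2 and mitosis, all open to a call, 23 were called higher and 0 lower, with a median of 2.08 (1.23 and 2.93). LO cell 58 of the first table, named above for Gins1 and Tyms, held 5.59% of the replication gene reads of its sum. The largest share of that sum in a single cell was 11.5%, in LO cell 32. Without cell 58 the median of the 51 genes was 1.41. Over single cells left out it was highest, at 1.45, without LO cell 96 of the second table. In bulk sums, more cells in S phase and more RNA of these genes per cell cannot be told apart.

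Against young cells, the median of the replication genes was higher in HI and lower in LO cells. For HI against young cells, 13 of 47 genes were called higher (4.77% of all genes) and 0 lower (3.81%), and the median was 0.64 (0.39 and 0.92). The 13 were Cdc6 at 1.30, Cdc45 at 1.34, Gins3, Prim2, Pole2, Pclaf at 1.25, Lig1, Rpa1 at 1.14, Rrm2 at 1.77, Tyms, Tk1, Chaf1a and E2f1 at 1.44. Of the Mcm2 to Mcm7 ring none was called, with differences from 0.24 for Mcm4 to 0.70 for Mcm2. The regulators of S phase entry had the highest median of the steps, 1.32, with 1 of 4 called and 2 open to a call, and nucleotide genes followed at 1.04, with 3 of 5 called. The count of 13 became 20 on leaving out young cell 48 of the first table, which held 14.3% of that sum's replication gene reads. In the second table alone, where the young cells differ in sex markers from all other sums, 37 genes were past the bound. The bound is easier to pass in a single table than in both, and the share of all genes past it there is not given here.

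For LO against young cells, 12 of 47 genes were called lower (4.57% of all genes) and 0 higher (4.76%), and the median was -0.71 (-0.93 and -0.40). No gene of the 51 was higher in LO than in young cells in both tables. The 12 were Mcm3 at -1.15, Mcm5 at -1.34, Mcm7, Mcm10 at -2.12, Gins1, Gins4, Prim1, Pole at -1.49, Rfc4, Dscc1 at -1.74, Tipin and Tyms. The ring was lower in LO than in young cells in each table for each of its 6 genes. The count was 24 without the LO cell numbered 96 of the second table, 21 without the LO cell numbered 90 of that table and 7 without the young cell numbered 95 of that table. These comparisons share their groups with each other and with HI against LO, so their values are given side by side only.

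MID cells lay between LO and HI cells in the median of the replication genes. For MID against LO cells, 6 of 47 replication genes were called higher (1.55% of all genes) and 0 lower (1.69%), with a median of 0.50 (0.55 and 0.37). They were Mcm5 at 0.86 (0.61 and 1.11), Gins1 at 1.20 (0.93 and 1.47), Dscc1 at 1.58 (1.04 and 2.12), Tyms at 0.69 (0.62 and 0.75), Tk1 at 0.76 (0.94 and 0.58) and Chaf1a at 0.97 (0.64 and 1.29). Without the MID cell numbered 77 of the second table the difference of Gins1 was 0.61. The G2 and mitosis genes had a median of -0.14 (-0.30 and 0.00) in the same comparison, and 1 of 31 was called higher. Against young cells, MID cells had a median of -0.22 (-0.43 and -0.02) over the replication genes, with 0 called higher (3.87%) and 1 lower (4.05%). There the G2 and mitosis genes had a median of -1.61 (-1.26 and -1.96), and 28 of 31 were called lower. For HI against MID cells, 27 replication genes were called higher (4.07%) and 0 lower (2.24%), with a median of 0.83.

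**Figure D3:**
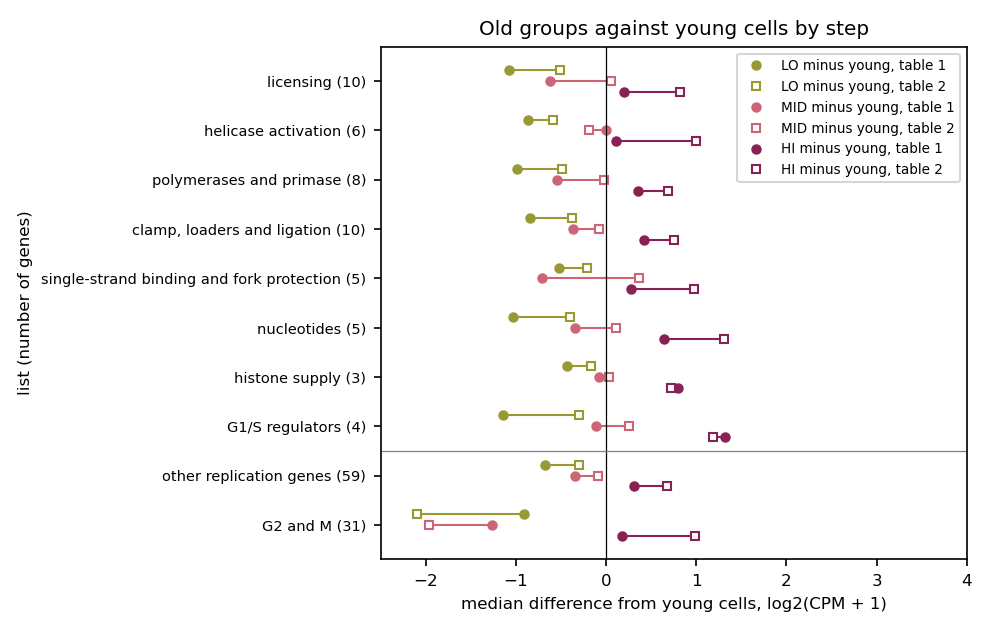
Median difference of each step of replication, and of the further replication genes and the G2 and mitosis genes, from young cells on the log2(CPM + 1) scale in LO, MID and HI cells; filled circles are the first table, open squares the second, and the number of genes stands beside each list. LO medians lie below 0 and HI medians above 0 in each step, while MID medians of the steps lie from -0.71 to 0.37, apart from the G2 and mitosis genes, where MID lies at -1.26 and -1.96.

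Cells ranged from a few replication genes read to nearly all of them in each group. After thinning, a cell held reads of a median of 18 of the 51 genes (young), 16 (LO), 17 (MID) and 25 (HI), and the range was 6 to 49, 8 to 48, 8 to 49 and 10 to 50. Unthinned, the medians were 21, 19, 20 and 28. At least 15 genes were read in 71.1% of young, 67.5% of LO, 72.4% of MID and 90.2% of HI cells, a bound that most cells of each group passed. At least 30 genes, a bound set after the values were seen, were read in 29 young (22.7%, exact interval 15.7% to 30.9%) and 8 LO cells (6.5%, 2.85% to 12.4%). The same bound was passed by 11.8% of MID (15, 6.76% to 18.7%) and 42.3% of HI cells (52, 33.4% to 51.5%). Unthinned, those shares were 25.4%, 8.09%, 15.7% and 46.5%. In the tables apart, the shares were 23.7% and 21.7% in young, 5.26% and 7.58% in LO, 10.8% and 12.9% in MID and 32.3% and 53.4% in HI cells, so that HI was highest and LO lowest in each.

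**Figure D4:**
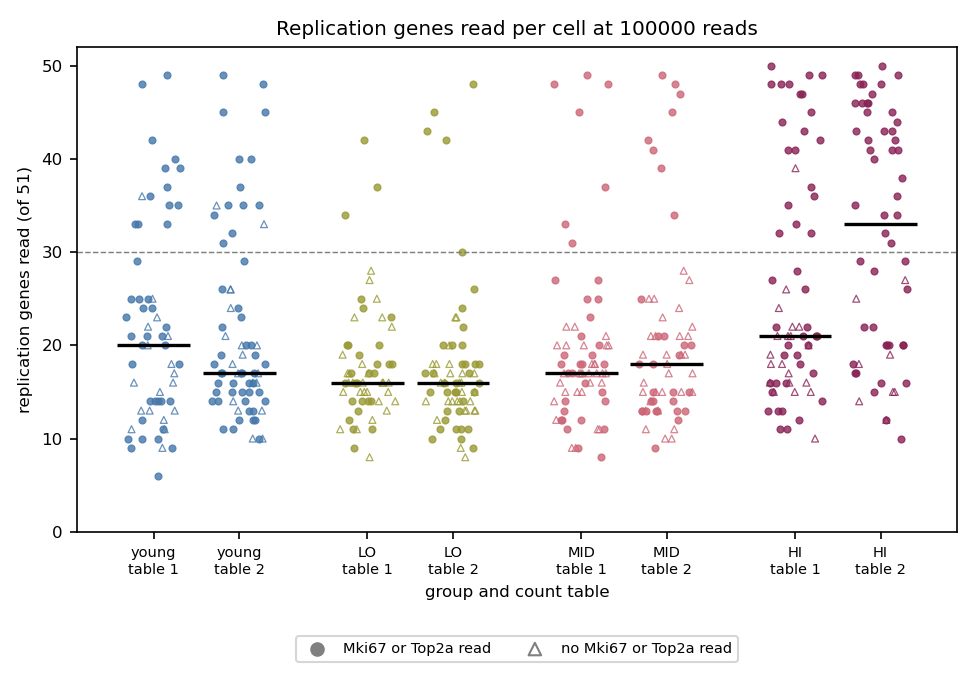
Number of the 51 replication genes with a read in each cell thinned to 100000 reads, by group and count table; filled points are cells with a read of Mki67 or Top2a at full depth, open triangles cells without, black bars the medians and the dashed line 30 genes. The LO and MID medians lie at 16 to 18, the HI medians at 21 and 33, and most cells above the line are filled points.

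In each group a few cells held a large share of the replication gene reads. The 6 or 7 cells with the most replication gene reads held 36.8% and 56.5% of these reads in LO and 46.5% and 57% in MID cells, beside 16.3% and 17.3%, and 14% and 17%, of all nuclear reads. In HI cells such cells held 42.6% and 36.6%, beside 16.3% and 20.0% of all nuclear reads. In young cells they held 38.9% and 45.6%, beside 15.8% and 16.7%. Single cells reached 18.4% of the replication gene reads of LO cells in the second table (cell 96) and 20.0% of those of MID cells in the second table (cell 77).

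Within a cell, many replication genes often came with many G2 and mitosis genes. Of cells with at least 30 replication genes, 15 of 29 young, 6 of 8 LO, 9 of 15 MID and 38 of 52 HI cells also held reads of at least 8 of the 31 G2 and mitosis genes. The remaining cells held 2 to 7 such genes, apart from 1 young cell with fewer. They were 13 young, 2 LO, 6 MID and 14 HI cells, which is 10.2%, 1.63%, 4.72% and 11.4% of thinned cells. At least 8 G2 and mitosis genes with under 30 replication genes were read in 2 young, 0 LO, 1 MID and 4 HI cells, and a count of 0 in LO cells allows a share of up to 2.44%. Across cells of a group, which share depth after thinning, the number of replication genes and of G2 and mitosis genes had a Spearman correlation of 0.43 (young), 0.18 (LO), 0.34 (MID) and 0.68 (HI), over the thinned cells counted above. The Pearson correlation was 0.59 (young), 0.69 (LO), 0.66 (MID) and 0.69 (HI), so the order of the groups depended on the measure.

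**Figure D5:**
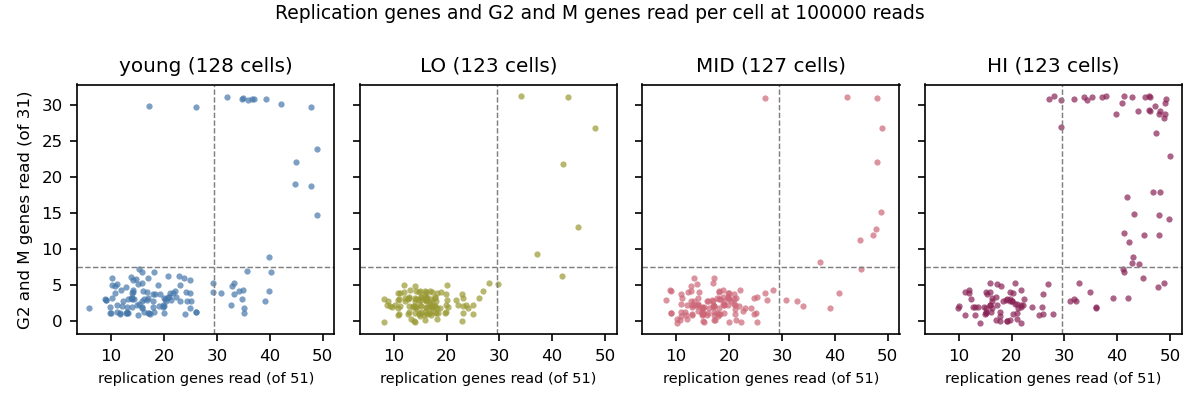
Replication genes (of 51) against G2 and mitosis genes (of 31) with a read in each cell thinned to 100000 reads, in 1 panel per group, with a small random shift of each point so that points do not hide each other; dashed lines mark 30 replication genes and 8 G2 and mitosis genes. Most cells lie at the lower left, and the upper right holds 15 young, 6 LO, 9 MID and 38 HI cells.

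Cells with no read of Mki67 and Top2a, genes typical of dividing cells, were then taken apart. They were 40 young (29.9%), 68 LO (50%), 66 MID (49.3%) and 29 HI cells (22.5%), and only 8 of the HI cells were in the second table. They held 32.8% of the nuclear reads of all genes in kept cells and 16.2% of the reads of the 51 replication genes. By group, the latter share was 16.9% (young), 28.8% (LO), 24.3% (MID) and 7.79% (HI). By gene, with the 4 groups pooled, the share of reads in these cells ran from 0.768% for Mcm10 to 29.7% for Gins4. Low shares were those of E2f1 (2.23%), Rrm2 (2.33%), Pclaf (2.34%), E2f2 (2.34%), Ccne1 (4.78%) and Tk1 (5.57%), and high ones those of Chaf1b (29.6%), Rfc1 (25.4%), Rpa3 (25.3%) and Rfc3 (23.4%). A gene's pooled share also depends on how its reads are spread over the groups, and HI cells held 5682 reads of Rrm2 against 1550 in young, 1063 in LO and 941 in MID cells. Among licensing genes, the share was 9.01% for Mcm5, 11.1% for Cdt1 and 18.5% for Mcm6. By cells, Mcm10 was found in 2.16% of thinned cells without and 26.3% of cells with reads of Mki67 or Top2a, and Rfc1 in 71.9% and 80.4%.

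In these cells the HI and LO groups were closer than among all kept cells. The median HI against LO difference over the 51 genes was 0.20 (0.16 and 0.23), and 0.24 with a sum of 0 reads set to 3 reads, as 5 genes had such a sum. It was 0.0055 without the HI cell numbered 41 of the first table and 0.04 without the HI cell numbered 82 of the second, and it was -0.0050 with the cells marked for another type left out. With absence of Mki67 and Top2a reads judged after thinning, and so at equal depth, the median was 0.41. Of 36 genes open to a call, 5 were called higher (4.6% of all genes) and 2 lower (8.07%). By any amount, 19 of 51 were higher in both tables, where 22.8% of all genes were. The same median was -0.43 for LO against young and -0.15 for HI against young cells. A cell without those reads held a median of 17, 16, 17 and 18 replication genes in young, LO, MID and HI cells, and at least 30 in 3, 0, 0 and 1 cells. As a share of all thinned cells of the group, those counts of 0 allow up to 2.44% in LO and 2.36% in MID cells. In the other comparisons of these cells, MID against LO gave 5 genes higher (4.15% of all genes) and 3 lower (3.99%), HI against MID 7 higher (4.54%) and 3 lower (7.51%) and HI against young 2 higher (8.01%) and 4 lower (8.52%). MID against young gave 2 higher (7.91%) and 9 lower (5.28%), and LO against young 1 higher (8.2%) and 4 lower (6.04%).

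The 5 genes called higher in HI cells without Mki67 and Top2a reads were Mcm3, Mcm5, Pola2, Rrm1 and Tyms. Mcm5 was at 31.5 and 30.4 CPM (LO) and 129.2 and 96.2 CPM (HI), a difference of 1.82 (2.0 and 1.63), and was read in 12 of 58 LO and 14 of 28 HI thinned cells, 20.7% and 50%. Without the HI cell numbered 82 of the second table the difference was 0.85, and 1 single cell changed the call when left out. Tyms was at 14.3 and 12.8 CPM (LO) and 43.7 and 63.2 CPM (HI), a difference of 1.88 (1.55 and 2.22), and was read in 17 of 58 LO and 14 of 28 HI cells. No single cell changed the call of Tyms. Mcm3 differed by 0.89 (0.62 and 1.17), Pola2 by 1.17 (0.85 and 1.5) and Rrm1 by 0.79 (0.80 and 0.78), and leaving out single cells changed the call of Mcm3 in 17 cases, of Pola2 in 1 and of Rrm1 in 3. Lig1 and Chaf1a were called lower, at -2.89 (-2.28 and -3.5) and -1.27 (-0.85 and -1.68), and 3 single cells each changed the call of Chaf1a, whose difference was -0.38 without 1 of the LO cells.

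The words searched in the promoters were also set beside these differences. The 15 genes with an E2F word had a median HI against LO difference of 1.40 (range 0.76 to 3.01), the 26 with a window and no word 1.25 (0.52 to 3.44) and the 10 with no window 1.38 (0.85 to 2.67). The ranges overlapped over most of their length, and no test was made.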

How the data were processed

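Single bone marrow cells were sequenced by Smart-seq2, and each sample is 1 cell. Both deposited tables hold whole-number counts of reads by gene, with no molecular identifiers. Per the submitters' processing notes, mm10, DESeq2, featureCounts 2.0.0, Subread and STAR 2.7.3a were used, in roles not given in the sources used here; the treatment of reads shared by overlapping genes is likewise not given. Of all reads in the tables, 23.1% lay in genes. Symbols came from GENCODE M21 (GRCm38). Beside the overlaps named in the results, further replication genes overlap genes that were read, such as Gins2 (Gse1), Rfc2 (Lat2), Rfc4 (Eif4a2) and Rfc5 (Wsb2). Others are Lig1 (Zswim9), Fen1 (Tmem258), Chaf1a (Ubxn6) and Ccne2 (Ints8).

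Cells were kept with at least 50000 nuclear gene reads, 1000 genes and at most 20% mitochondrial reads. Counts of kept cells were summed by group and table, and CPM was computed here with edgeR's TMM factors (version 4.0.16, R 4.3.3). Python 3.11.15 with SciPy 1.17.1, pandas 2.3.3, matplotlib 3.10.9 and NumPy 2.4.6 did the rest. Intervals are exact 95% Poisson and Clopper-Pearson intervals, the limit for 0 is 3 counts, and thinning used 1 seeded draw. With no animal named, no test was run. No doublets were called. The steps were tested on simulated data.

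Values are given in full for Mcm2 to Mcm7, Orc1, Cdc6, Cdt1, Cdc45, Pcna, Pclaf, Rrm2, Tyms, Tk1, Ccne1, Ccne2 and E2f1, and for the largest and smallest HI against LO difference of each step among genes of at least 10 CPM. Further genes given in full were chosen after their values were seen. The genes, steps and lists were chosen with earlier results of these data known. Alternatives covered scaling, pseudocount, filters, cells, tables and single cells.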

Additional observations from a re-analysis of the deposited data

How the results depend on the processing

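With no test, an alternative was read as moved when a median went further than the SD of the 2 tables, a count changed by over 1.5 times or a share left its interval. The cause of the moves below was not tested. A count from a single table follows a looser rule than a count from both. Shares of all genes called are given for the main settings only, so the counts under alternatives have no such share beside them. The HI against LO median kept its sign in all 13 alternatives, from 1.13 (a pseudocount of 10 CPM) to 1.45. It was 1.39 as a mean of CPM per cell, 1.25 in the first table alone, 1.41 without the LO cell numbered 58, and 1.25 to 1.45 over single cells left out. Without cells that hold 3 or more markers of another cell type it was 1.23, with 26 genes called higher in place of 40. Over single cells that count was 38 to 43. HI against young gave 37 calls in the second table alone, 6 at 50 CPM and 25% of cells, and 9 to 20 over single cells; LO against young gave 2 higher in the second table alone, and 33 lower in the first table alone and 7 to 24 over single cells, the count of lower calls being added after the data were seen.

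In cells without Mki67 and Top2a reads the HI against LO median turned to -0.0050 without cells with markers of other types. It was 0.26 with median-ratio factors as in DESeq2, 0.14 at 10 CPM, 0.41 with the reads judged after thinning, 0.25 with at most 1 G2 and mitosis gene, and 0.0055 to 0.26 over single cells. Its count of calls was 10 and 14 in each table alone, 8 without a level filter, 2 at the stricter filter and 3 to 7 over single cells.

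The share of cells with at least 15 replication genes was 82.8%, 78.7% and 88.8% in young, LO and MID cells unthinned. At 50000 reads it was 55.2%, 42.6%, 54.5% and 79.8% in young, LO, MID and HI cells, and it was 60.8% in young cells without other markers. At 30 genes, added after the data were seen, it was 22.7%, 6.5%, 11.8% and 42.3%.

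No paired analysis was possible because no result comes from a test and the numbers in the labels only name cells. Depth limits genes under 10 CPM, and the 8 HI cells without Mki67 and Top2a reads in the second table limit every value taken from them.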

Other observations

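The ratio of gene reads to reads of the added spike-in RNA, a measure of RNA per cell, was set beside the number of replication genes read. In thinned cells with fewer than 20 replication genes the median ratio was 31.8 (young), 43 (LO), 38.6 (MID) and 43.7 (HI). With at least 30 genes it was 84.8, 84.2, 81.6 and 100.5, from 29, 8, 15 and 52 cells. With 20 to 29 genes it was 40.9, 120.5, 99.6 and 58.4, from 31, 21, 31 and 31 cells. In each group the cells with at least 30 genes had a higher median than those with fewer than 20, with overlapping quartile ranges. In LO and MID cells the median was highest in the class between, so the ratio did not follow the number of genes there. The amount of spike-in RNA added to each well is not given in the sources used here. The ratio and the number of genes read were not tested against each other.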
